A study of Homo sapiens with 12 samples.

Results

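The genes of apolipoproteins and lipoprotein assembly moved apart in Huh7 cells with FAM111B knocked down. The transcripts of APOA1, APOA2, APOE, APOC1 and APOC3, which encode the small apolipoproteins that move between particles, were 1.63 to 2.17 times as high in shFAM111B cells as in control cells. All 5 rose with the deposited TPM, although APOC3 fell once the trend over transcript length and expression was removed. APOB, the backbone of very low and low density lipoproteins, was 4.91 times lower (236.5 ± 7.81 TPM in control and 48.2 ± 3.01 TPM in shFAM111B cells, SD, n = 3). MTTP, the transfer protein that loads APOB with lipid, went the other way and was 2.56 times as high (47.5 ± 0.040 and 121.5 ± 5.64 TPM). APOH fell, and APOM and LIPC did not pass the test, but these 3 results depended on how the libraries were scaled.

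These 10 genes (APOA1, APOA2, APOB, APOC1, APOC3, APOE, APOH, APOM, MTTP and LIPC) were taken by name from the 60666 genes of the table deposited for Huh7 cells. Huh7 is an established human hepatocellular carcinoma line. Cells carried a lentiviral control construct (genotype "Control group") or the shFAM111B construct (genotype "FAM111B knockdown"), with 3 libraries each, and the study selected the infected cells with puromycin. Both groups were therefore transduced and selected lines, and no uninfected cells were compared. The 6 libraries of Hep3B, the other liver cancer line of the series, were not analysed here. The study states in general that experiments were repeated 3 times, but for these libraries neither how many clones or separate cultures lie behind them nor more than 1 shRNA sequence against FAM111B, so p-values measure only the spread between these libraries, which may be technical. FAM111B itself, a protease gene, was at 7.84, 8.29 and 7.99 TPM in control replicates 1 to 3 and at 0.96, 1.13 and 0.84 TPM in shFAM111B replicates 1 to 3. Its log2 fold change was -2.20 (SE 0.11, limma adjusted p = 6.088e-06), in the direction of the labels. The pseudocount of 1 shrinks the change of such a low gene, since the mean TPM was 8.23 times lower and the log2 fold change was -2.93 with a pseudocount of 0.1.

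The liver secretes triglyceride and cholesterol in very low density lipoproteins, each built on a single APOB molecule. In the endoplasmic reticulum, MTTP moves lipid onto APOB as it is made, and APOB that stays poor in lipid is degraded. High density lipoproteins (HDL) are built on APOA1 and APOA2 with lipid exported by ABCA1. The exchangeable apolipoproteins of the C and E groups pass between both kinds of particle, where they steer lipases and receptor uptake. Hepatocytes are the main source of nearly all of these proteins, and several of their genes lie in clusters, with APOA1 beside APOC3 on chromosome 11 and APOE beside APOC1 on chromosome 19.

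Promoter sequences were read for the 7 of 10 genes that matched an entry in RefSeq (GRCh38.p14), taking the 250 bases before the annotated start, and entries for APOA1, APOB and APOC3 were not used here. Letters of 5 motifs bound by liver factors or by the general machinery were searched on both strands. The nuclear receptor half-site AGGTCA occurred in 12.1% of all 35116 promoter windows of this length. The HNF4 core CAAAGTCCA was much rarer and occurred in 0.325% of these windows. For the HNF1 half-site GTTAAT the share was 6.23%. The core letters of FOX factors, TGTTTAC, were found in 2.98%, and the TATA box letters TATAAA in 10.7% of them. The windows below are those with a match, shown because they hold the most abundant gene (APOA2), a gene that rose (MTTP), one that fell (APOH) and one that passed in neither direction (LIPC). Capitals mark the matches, and each is written 5′ to 3′ on the strand of its gene.

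APOA2 (chr1:161223629-161223878, minus strand): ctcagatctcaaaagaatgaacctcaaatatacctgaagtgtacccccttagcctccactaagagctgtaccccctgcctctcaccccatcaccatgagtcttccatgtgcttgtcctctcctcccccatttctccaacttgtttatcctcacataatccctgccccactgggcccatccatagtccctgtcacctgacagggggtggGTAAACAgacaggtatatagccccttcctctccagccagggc
MTTP, the downstream of 2 starts (chr4:99574574-99574823, plus strand): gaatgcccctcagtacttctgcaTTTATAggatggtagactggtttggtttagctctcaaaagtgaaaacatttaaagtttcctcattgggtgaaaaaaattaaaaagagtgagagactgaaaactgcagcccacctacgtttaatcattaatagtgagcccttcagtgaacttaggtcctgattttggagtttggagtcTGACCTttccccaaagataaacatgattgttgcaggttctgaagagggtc
APOH (chr17:66229416-66229665, minus strand): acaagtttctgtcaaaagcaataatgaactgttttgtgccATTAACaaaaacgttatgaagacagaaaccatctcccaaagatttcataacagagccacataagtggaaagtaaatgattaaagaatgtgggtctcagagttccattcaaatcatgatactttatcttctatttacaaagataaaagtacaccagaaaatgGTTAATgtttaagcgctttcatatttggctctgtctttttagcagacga
LIPC (chr15:58431741-58431990, plus strand): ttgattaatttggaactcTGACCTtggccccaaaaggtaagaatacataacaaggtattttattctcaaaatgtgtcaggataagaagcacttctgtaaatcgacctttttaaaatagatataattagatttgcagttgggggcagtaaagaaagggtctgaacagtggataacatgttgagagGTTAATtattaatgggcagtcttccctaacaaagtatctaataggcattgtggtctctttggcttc

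In APOA2 the capitals are the FOX core read on the other strand, from -42 to -36 relative to the start. The MTTP window holds a nuclear receptor half-site on the other strand from -50 to -45, and TATA letters on the other strand from -227 to -222. APOH carries an HNF1 half-site from -49 to -44 and a further one, on the other strand, from -210 to -205. LIPC has an HNF1 half-site from -66 to -61 and a nuclear receptor half-site on the other strand from -232 to -227. No match overlapped another. None of the 5 motifs was found in the windows of APOC1, APOM, the upstream start of MTTP or the 3 starts of APOE, and the HNF4 core was found in no window of these genes. Both APOA2, with a match, and APOE, without one, rose. A match is only a run of letters, and binding was not measured.

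Expression was deposited as TPM, a unit that corrects reads for transcript length and gives each library about the same sum, so levels of different genes can be compared but sequencing depth is unknown. Over the listed genes the sum was 978633.8 to 997094.3 TPM per library. Log2(TPM + 1) was compared with limma over the 14394 genes that reached 1 TPM in 3 or more libraries, so that a log2 fold change is on that scale and understates the change of low genes. A gene was called when its fold change was at least 2 with p under 0.05, the thresholds of the study. The measure and the fit differ from those of the study, which reported nearly equal numbers of genes up and down in Huh7 cells. Here 22.3% of the calls were in the higher direction. "Rose" and "fell" are used for a Benjamini-Hochberg adjusted p under 0.05. All 10 genes passed the filter on low values. Of them, 4 were called higher (APOA1, APOA2, APOE and MTTP), against 6.82% of all tested genes, and 1 was called lower (APOB), against 23.7%. Among tested genes with a mean of 10 TPM or more, these shares were 6.34% and 23.8%. At an adjusted p under 0.05, 6 rose and 2 fell, where 21.1% of all tested genes rose and 50.9% fell. The median log2 fold change of the 10 was 0.80, with 8 above 0, beside -0.36 over all tested genes. The libraries of both groups did not overlap for any of the 10 genes, which was also true of 75.2% of all tested genes.

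**Figure D1:**
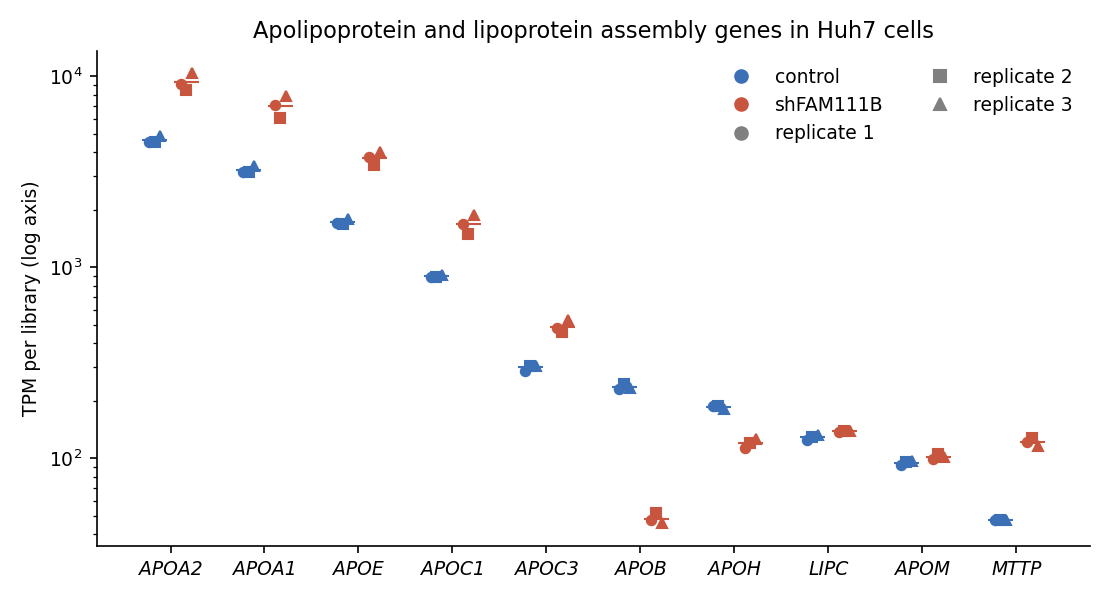
TPM of the 10 genes in each library on a log axis, in order of their control level, with control libraries in blue, shFAM111B libraries in red, a symbol for each replicate number and a line at the mean of a group. APOB drops from 230.2 to 245.2 TPM in control libraries to 45.67 to 51.5 TPM, below all other genes plotted, and MTTP moves from the lowest place to 115.9 to 127.2 TPM.

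APOA1 (ENSG00000118137, chr11:116835751-116837950, minus strand), the main protein of HDL, was at 3154.0, 3165.7 and 3379.6 TPM in control replicates 1 to 3. In shFAM111B replicates 1 to 3 it was at 7081.6, 6054.8 and 7892.9 TPM. Every shFAM111B library was above every control library, and the spread was wider after knockdown (CV 13.14%) than in control (3.93%). The mean rose from 3233.1 ± 127 to 7009.8 ± 921.1 TPM (SD, n = 3). The log2 fold change was 1.11 (SE 0.10, 95% CI 0.88 to 1.33 from limma, adjusted p = 4.684e-05). In bulk RNA, a change in the number of cells that express a gene and a change in the transcript per cell cannot be told apart. APOA2 (ENSG00000158874, chr1:161222292-161223631, minus strand), also a major HDL protein, was the most abundant of the 10 genes in both groups. Its control libraries held 4547.4, 4555.2 and 4846.7 TPM, and its shFAM111B libraries 9167.6, 8480.6 and 10378.5 TPM. The gap between the groups exceeded the range within either one. The log2 fold change was 1.00 (SE 0.08, 95% CI 0.82 to 1.19, adjusted p = 2.997e-05), so APOA2 lay at the fold threshold and its call was lost without control replicate 1 or 2 (0.99) or without shFAM111B replicate 3 (0.92), while it still rose.

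Among the exchangeable apolipoproteins, APOE (ENSG00000130203, chr19:44905754-44909393, plus strand), the ligand by which remnant particles bind their receptors on liver cells, was at 1701.5, 1674.7 and 1795.9 TPM in control cells. After knockdown it was at 3767.0, 3416.8 and 4006.8 TPM. All 3 shFAM111B libraries were thus far above the highest control library, and the log2 fold change was 1.11 (SE 0.07, adjusted p = 9.955e-06). APOC1 (ENSG00000130208, chr19:44914247-44919349, plus strand), which inhibits cholesteryl ester transfer, held 885.2, 894.4 and 913.9 TPM in control and 1686.5, 1495.0 and 1878.9 TPM in shFAM111B libraries. It rose with a log2 fold change of 0.90 (SE 0.08, adjusted p = 5.63e-05), just under the fold threshold. Its near-identical pseudogene APOC1P1 was at 2.68, 2 and 3.18 TPM in control and at 10.35, 8.01 and 19.1 TPM in shFAM111B libraries, and reads may have been shared between both copies. APOC3 (ENSG00000110245, chr11:116829706-116833072, plus strand), an inhibitor of lipoprotein lipase and of remnant uptake, held 287.9, 303.9 and 305.6 TPM in control cells. Its shFAM111B libraries held 477.8, 459.2 and 528.4 TPM. The groups stood apart, and APOC3 rose with a log2 fold change of 0.70 (SE 0.06, adjusted p = 4.918e-05), the smallest rise of the 6. With the length and expression trend removed it turned to -0.357 (adjusted p = 0.00174).

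APOA1, APOA2, APOC1, APOC3 and APOE kept the same order among the shFAM111B libraries, with replicate 3 highest and replicate 2 lowest for each of them. This order ran opposite to that of TPM from 5S ribosomal RNA genes, which was 22970.0, 33058.6 and 1485.9 in shFAM111B replicates 1 to 3 and 0 in every control library. MTTP and APOB had the reverse order, with replicate 2 highest and replicate 3 lowest. Summed TPM of the mitochondrial chromosome also differed, at 196139.6 to 201464.5 in control and 73236.6 to 78883.4 in shFAM111B libraries. After mitochondrial and small RNA genes were removed and the rest rescaled, the log2 fold changes were 0.977 for APOA1, 0.871 for APOA2 and 0.98 for APOE, so that MTTP alone stayed called higher. Without the 2 shFAM111B libraries rich in 5S RNA, only 1 shFAM111B library was left, which was assumed to vary like the others. The log2 fold changes were then 1.29 for APOA1, 1.16 for APOA2, 1.22 for APOE, 1.06 for APOC1 and 0.819 for APOC3. They were 1.27 for MTTP and -2.35 for APOB.

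APOB and MTTP, the pair that starts assembly of very low density lipoproteins, moved in opposite directions. APOB (ENSG00000084674, chr2:21001429-21044073, minus strand) was at 230.2, 245.2 and 234 TPM in control replicates 1 to 3 and at 47.3, 51.5 and 45.67 TPM in shFAM111B replicates 1 to 3. No shFAM111B library came near the control range. APOB fell by 2.27 on the log2 scale (SE 0.06, 95% CI -2.41 to -2.13, adjusted p = 1.578e-06). MTTP (ENSG00000138823, chr4:99563761-99623999, plus strand) was at 47.48, 47.43 and 47.51 TPM in control cells, a CV of 0.085%. It was at 121.3, 127.2 and 115.9 TPM after knockdown, so that every shFAM111B library lay well above the control values. It rose by 1.34 on the log2 scale (SE 0.05, 95% CI 1.22 to 1.46, adjusted p = 2.95e-06). APOB and MTTP were called in all 17 settings tried, with log2 fold changes under 5 other scalings of -2.41 to -1.74 and 1.21 to 1.87. TRMT10A overlaps the 5′ end of MTTP on the opposite strand over 272 nt. Its 6.62, 5.14 and 5.09 TPM in control and 2.44, 1.83 and 1.85 TPM in shFAM111B libraries were far below those of MTTP, and TRMT10A fell (log2 fold change -1.12, adjusted p = 0.0003753).

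APOH (ENSG00000091583, chr17:66212033-66256525, minus strand) encodes beta2-glycoprotein I, a phospholipid binding plasma protein that travels partly with lipoproteins. Its levels were 186.8, 187.1 and 181.3 TPM in control and 112.9, 120.2 and 126 TPM in shFAM111B libraries. Every shFAM111B value was below every control value, and APOH fell by 0.63 on the log2 scale (SE 0.05, adjusted p = 4.174e-05), short of the fold threshold. The fall was -0.173 with median-of-ratios and -0.214 with upper-quartile scaling, and it did not pass with median centring (-0.0925, adjusted p = 0.147). APOM (ENSG00000204444, chr6:31652416-31658210, plus strand), the HDL carrier of sphingosine-1-phosphate, held 92.48, 94.93 and 96.34 TPM in control and 99.21, 104.7 and 101.4 TPM in shFAM111B libraries. The ranges did not meet, yet the log2 difference was only 0.10 (SE 0.05, 95% CI -0.003 to 0.21, adjusted p = 0.07413) and did not pass. BAG6 overlaps APOM on the opposite strand over 290 nt at a like level, 107.2 to 125.4 TPM in control and 108.3 to 137.4 TPM in shFAM111B libraries. Since the strand setting of the counting is not given in the sources used here, reads of this overlap may be shared. LIPC (ENSG00000166035, chr15:58410569-58569843, plus strand), the hepatic lipase that trims remnants and HDL, was at 124.4, 129.3 and 131.9 TPM in control cells. Its shFAM111B libraries held 137.2, 139.4 and 139.6 TPM. These lay narrowly above the control range, with a log2 difference of 0.11 (SE 0.04, 95% CI 0.01 to 0.21, adjusted p = 0.05366) that just missed the threshold. Both genes depended on the scaling. With median-of-ratios scaling, upper-quartile scaling and median centring APOM rose by 0.555, 0.515 and 0.638 and LIPC by 0.561, 0.521 and 0.643, so that 8 of the 10 genes rose. The same scalings lifted the whole table, with 14.1%, 13.2% and 18% of all tested genes called higher, against 6.82% as deposited. After removal of mitochondrial and small RNA genes APOM and LIPC had small negative values (-0.0254 and -0.0206) that did not pass.

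**Figure D2:**
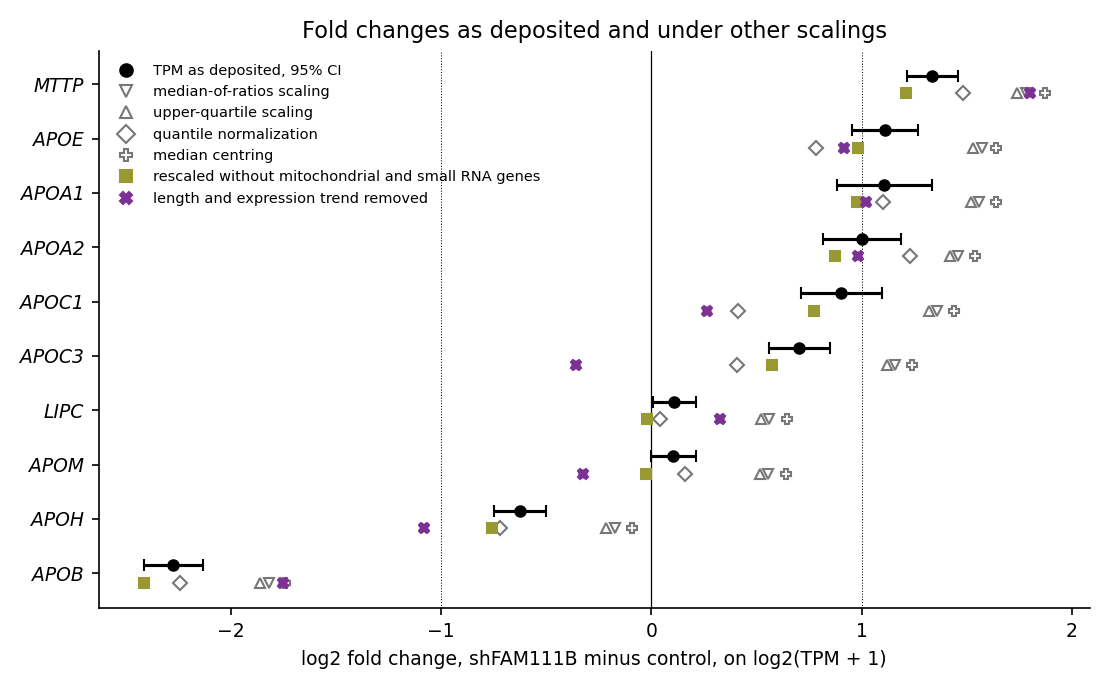
Log2 fold change of each of the 10 genes between shFAM111B and control libraries, with the deposited TPM as black points with 95% confidence intervals from limma and other scalings as open or coloured symbols. Dotted lines mark the fold threshold of 2. MTTP stays at 1.21 or above and APOB at -1.74 or below in every setting plotted. APOM and LIPC have symbols on both sides of 0, and APOC3 is below 0 only with the length and expression trend removed.

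In control cells the 10 genes stood in the order APOA2, APOA1, APOE, APOC1, APOC3, APOB, APOH, LIPC, APOM and MTTP by mean TPM, and no neighbours overlapped in their 3 libraries. After knockdown, the 5 most abundant genes kept their places. APOB went from place 6 to place 10 and MTTP from 10 to 7, where its libraries overlapped those of APOH. The 10 genes together held 11257.4, 11297.8 and 11932.7 TPM in control libraries and 22698.4, 20449.4 and 25214.1 TPM in shFAM111B libraries. This was 1.132 to 1.197% of all listed TPM in control and 2.09 to 2.536% in shFAM111B libraries, a 1.98-fold rise of the mean. APOA1, APOA2, APOC1, APOC3 and APOE made up nearly all of the sum (22257.4 of 22787.3 TPM in shFAM111B cells). The exact two-sided permutation test of 3 libraries against 3 gave p = 0.1 for the sum, the smallest it can give. The fold of the sum was 1.81 after removal of mitochondrial and small RNA genes and 2.72 under median-of-ratios scaling.

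Ratios between genes within a library do not depend on any factor that multiplies the whole library, but quantile normalization, which adjusts each level separately, can change them. MTTP transcript per APOB transcript was 0.2063, 0.1934 and 0.203 in control libraries and 2.565, 2.47 and 2.538 in shFAM111B libraries. The groups were far apart, and the ratio was 12.6 times as high after knockdown (log2 difference 3.65, SE 0.03). APOA1 per APOB was 13.7, 12.91 and 14.44 in control libraries and 149.7, 117.6 and 172.8 in shFAM111B libraries, a difference of 10.6 times. APOE per APOB also differed 10.6 times, from 7.30 ± 0.43 to 77.9 ± 10.8 (SD, n = 3).

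Ratios among the genes that rose moved far less. APOA2 per APOA1 was 1.44 ± 0.0039 in control and 1.34 ± 0.056 in shFAM111B libraries, a log2 difference of -0.11 (SE 0.03). Under quantile normalization the order was turned, with a log2 fold change of 1.23 for APOA2 and 1.1 for APOA1. In the chromosome 11 cluster, APOC3 per APOA1 went from 0.0926 to 0.0701 (log2 difference -0.40, SE 0.06). In the chromosome 19 cluster, APOC1 per APOE went from 0.521 to 0.451 (-0.21, SE 0.04). These cluster neighbours therefore rose by unequal amounts. APOM per APOA1 and LIPC per APOA1 had log2 differences of -1.003 (SE 0.13) and -0.9983 (SE 0.11). In each of the 8 ratios the groups did not overlap. No share over other pairs of genes was computed, and single genes did not overlap in 75.2% of all tested genes. The exact two-sided permutation p was 0.1 for each ratio, with 0.1 after adjustment over the 8, which is the smallest 3 against 3 libraries allow.

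**Figure D3:**
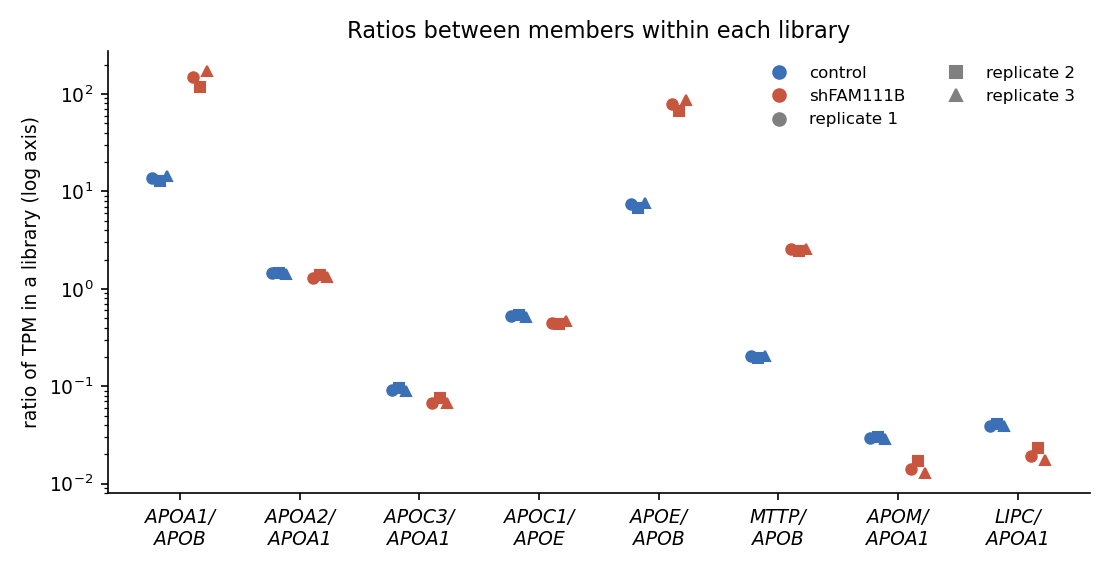
Ratio of TPM between 2 of the genes within each library on a log axis, with control libraries in blue, shFAM111B libraries in red and a symbol for each replicate number. MTTP/APOB goes from 0.2009 to 2.524 on average, while APOA2/APOA1 stays between 1.295 and 1.442 in all libraries.

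Fold changes differed between classes of transcript length across the table, and the 10 genes span the range of length, so each was set beside genes of a like length. APOA2 (927 nt for the longest annotated transcript), APOC1 (689 nt) and APOC3 (604 nt) belong to the 1478 tested genes of up to 1000 nt, of which 24.6% were called higher and whose median log2 fold change was 0.43. APOA1 (1227 nt), APOE (1208 nt), APOH (1176 nt) and APOM (1184 nt) belong to a class with a median of 0.17 and 11.5% called higher. LIPC (2968 nt) lies in a class with a median of -0.315. MTTP (4092 nt) rose, while its class of 4346 genes had a median of -0.78, with 2.16% called higher and 37.9% lower. MTTP lies near the lower edge of this class at 4000 nt. The class of 2000 to 4000 nt had a median of -0.315, with 4.57% called higher and 18.7% lower. APOB (14121 nt) is in the class over 8000 nt, where the median was -0.94 and 44.7% were called lower. With the trend over length and expression removed, the log2 fold changes were 1.80 for MTTP, 1.02 for APOA1, -1.75 for APOB and -1.08 for APOH, which were all called. APOA2 (0.981) and APOE (0.916) lost their calls but rose, and APOC1 was left with 0.264 (adjusted p = 0.0217). APOM turned to -0.323 (adjusted p = 0.000841), as APOC3 had turned, and LIPC rose by 0.324. The part of length in these fold changes was not tested further.

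Of 102 other genes of the pathway, chosen by their known roles, 86 were tested. Among them 8 were called higher and 16 lower, where 6.82% and 23.7% of all tested genes were called. At the adjusted threshold 20 rose, 50 fell and 16 did not pass, with a median log2 fold change of -0.36, the same as over all tested genes to 2 decimals. Among 16 other apolipoprotein genes, 8 were tested, 4 rose and 2 fell (median 0.30). APOA4, an apolipoprotein of the APOA1 and APOC3 cluster, rose from 2.60 ± 0.46 to 28.4 ± 4.0 TPM (log2 fold change 3.03, adjusted p = 4.463e-06). CLU, the most abundant of them and known as apolipoprotein J, fell from 2355.8 ± 203.8 to 1222.1 ± 9.29 TPM (-0.94, adjusted p = 1.671e-05). APOC2, the activator of lipoprotein lipase, was at 376.2 to 405.4 TPM in control and 425.1 to 475.3 TPM in shFAM111B libraries. The readthrough gene APOC4-APOC2, which shares its sequence, was at 38.22, 41.33 and 37.92 TPM in control and 88.41, 55.8 and 213.8 TPM in shFAM111B libraries, so reads of APOC2 may have been split between them.

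All 24 genes of lipoprotein assembly and secretion were tested, of which 4 rose and 16 fell (median -0.64). P4HB, the protein disulfide isomerase that is the partner subunit of MTTP and the most abundant of the list, was at 786.8 ± 22.7 TPM in control and 739.6 ± 8.32 TPM in shFAM111B cells and did not pass (-0.09, adjusted p = 0.07911). ACSL1, which activates fatty acids, fell from 44.5 ± 5.26 to 8.96 ± 1.33 TPM (-2.20, adjusted p = 8.859e-06). CANX, a chaperone of the endoplasmic reticulum, fell from 209.8 ± 9.82 to 86.3 ± 4.73 TPM (-1.27). DGAT1, an enzyme of the last step of triglyceride synthesis, rose from 33.9 ± 3.23 to 80.8 ± 4.88 TPM (1.23). CES1, a lipid hydrolase of the endoplasmic reticulum, rose from 23.9 ± 0.38 to 54.5 ± 8.52 TPM (1.15).

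Of 15 lipases, transfer proteins and their regulators, 11 were tested, with 4 that rose and 6 that fell (median -0.36). LIPA, the lysosomal acid lipase, fell from 23.9 ± 0.14 to 8.45 ± 0.78 TPM (-1.40). LPL, the lipoprotein lipase of muscle and fat, was listed at 0 in every library. Of 14 receptors and uptake genes, 12 were tested, with 2 that rose and 8 that fell (median -0.31). LRPAP1, a chaperone of lipoprotein receptors and the most abundant of the list, rose from 184.3 ± 5.53 to 264.8 ± 4.76 TPM (0.52). Among 7 genes of HDL formation and cholesterol efflux, 6 were tested, with 2 that rose and 1 that fell (median 0.08). NPC2, which hands over cholesterol in lysosomes, rose from 96.4 ± 3.27 to 234.6 ± 10.2 TPM (1.27, adjusted p = 3.15e-06).

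Among 26 transcription factors known to act on apolipoprotein genes, 25 were tested, of which 17 fell and 4 rose (median -0.48). HNF4A, a nuclear receptor that drives many apolipoprotein genes and MTTP, fell from 98.1 ± 2.11 to 40.7 ± 2.25 TPM (-1.25, adjusted p = 4.195e-06). PROX1, a corepressor of liver nuclear receptors, fell from 24.9 ± 3.5 to 4.42 ± 0.44 TPM (-2.25). NR5A2 (-1.47) and PPARG (-1.38), both nuclear receptors of lipid metabolism, fell as well. CEBPA, a factor of mature hepatocytes and the most abundant of this list, rose from 85.2 ± 7.44 to 138.0 ± 5.78 TPM (0.69, adjusted p = 0.0001164). The counts of these lists are read against 21.1% that rose and 50.9% that fell.

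**Figure D4:**
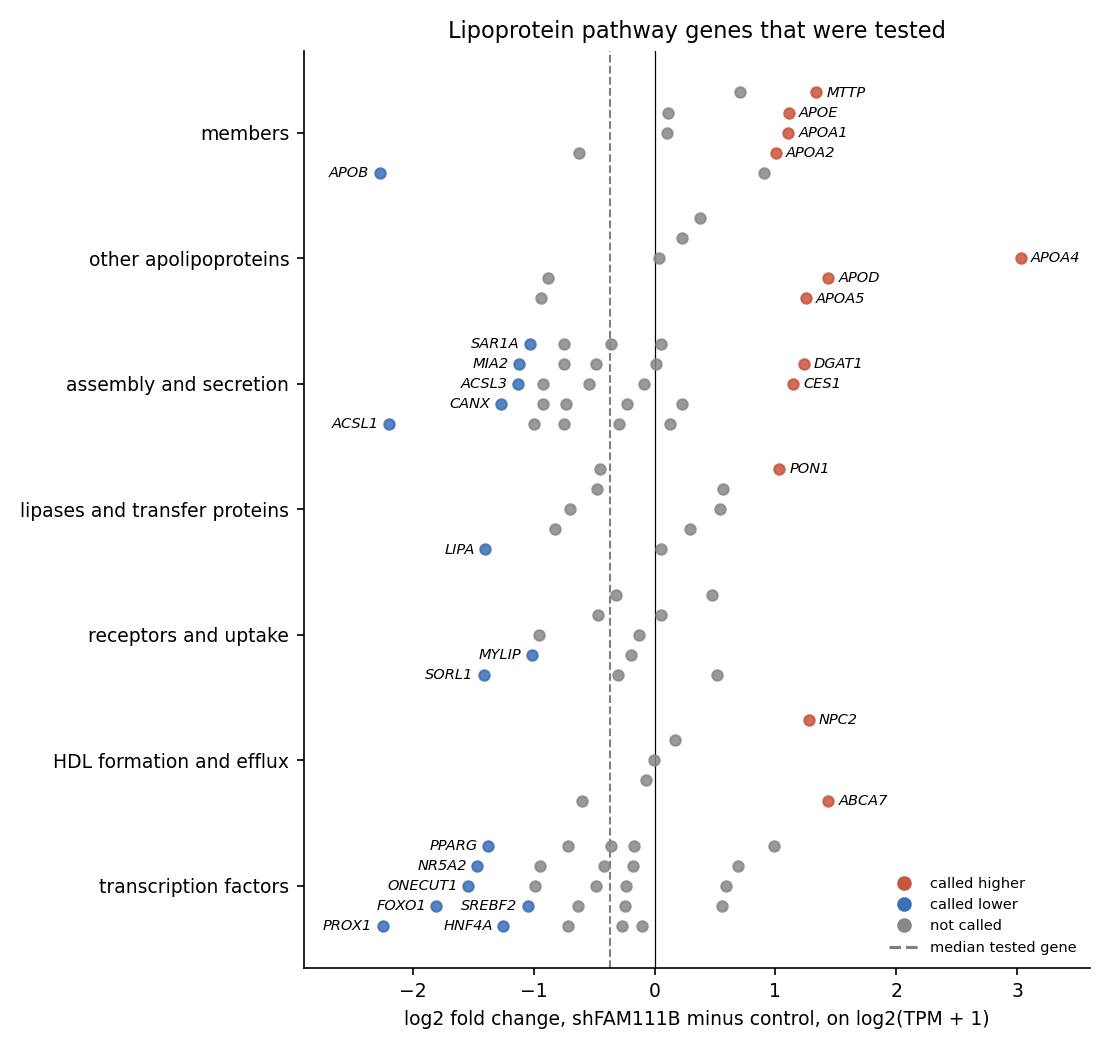
Log2 fold change of the 10 genes and of tested genes in 6 other lists of the lipoprotein pathway, each point a gene, red if called higher, blue if called lower and grey otherwise, with a dashed line at the median of all tested genes (-0.36). Some counted genes are not plotted, and points are spread vertically within a list only to part them. Transcription factors have 7 of 25 genes called lower, against 23.7% of all tested genes, and none called higher, against 6.82%.

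The liver identity of the cells was checked on markers. All 9 hepatocyte and liver cancer genes were at 1 TPM or above in both groups, with a summed level of 25726.5 to 25975.1 TPM in control and 39531.9 to 43287.8 TPM in shFAM111B libraries. AFP carried this difference, and the other 8 genes summed to 18315.4 to 18716.3 TPM in control and 17679.2 to 18249.7 TPM in shFAM111B libraries. Of the 9 genes, 5 rose and 4 fell, where 21.1% of all tested genes rose and 50.9% fell. ALB, albumin, fell from 6444.2 ± 41.1 to 4160.9 ± 185.3 TPM, and AFP, a fetal liver protein, rose from 7274.0 ± 199.9 to 23061.5 ± 1725.9 TPM. TTR rose from 835 ± 3.26 to 1718.1 ± 117.8 TPM, and KRT18, KRT8 and GPC3 rose by 0.76, 0.58 and 0.50 on the log2 scale. SERPINA1 (-0.29), TF (-0.56) and HNF4A (-1.25) fell. Since the intestine also makes APOB, MTTP and APOA4, its markers were set beside them. CDX2, an intestinal factor, rose from 11.9 ± 1.14 to 48.5 ± 6.13 TPM (log2 fold change 1.94, adjusted p = 8.321e-06), CDH17 was at 16.3 ± 0.10 and 30.4 ± 0.53 TPM and VIL1 at 98.9 ± 4.35 and 47.7 ± 1.47 TPM. The sum of the 4 intestinal genes was 121.5 to 132.3 TPM in control and 121.5 to 134.8 TPM in shFAM111B libraries, and APOBEC1, the intestinal editor of APOB transcripts, was listed at 0 in all. Of leukocyte, endothelial and fibroblast markers, the summed levels were 15.13 to 18.58, 1.26 to 2.29 and 3.52 to 3.96 TPM in control. In shFAM111B libraries they were 21.88 to 23.63, 2.15 to 3.49 and 4.93 to 8.38 TPM. CD68 made up most of the leukocyte sum, while CD3E was at 0.13 TPM or below in every library. PTPRC was at 0.13, 0.04 and 2.39 TPM in control replicates 1 to 3 and at 0.02 TPM or below in shFAM111B libraries. The part of these genes in the changes of the apolipoproteins was not tested.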

How the data were processed

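Total RNA of Huh7 cells was made into poly(A)-selected libraries, for which the labels name a stranded Illumina mRNA kit and the paper a TruSeq kit. The submitters' processing notes name RSEM, DESeq2 and hg38 without versions, and the aligner and strand setting are not given in the sources used here. The authors deposited TPM per library, their group means, and their own comparison as a ratio (fold change), its log2, p-values and adjusted p-values, and the means and this comparison were not used. TPM are relative values that keep no depth, so no counting error can be given and no count test was run.

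Genes that reached 1 TPM in 3 or more libraries were kept. Log2(TPM + 1) was compared in limma 3.58.1 (R 4.3.3, lmFit and eBayes with a trend, no covariates), with Benjamini-Hochberg adjustment over all tested genes. Sums and ratios were compared with exact two-sided permutation tests (Python 3.11.15, numpy 2.4.6). The t quantiles of the confidence intervals were taken from scipy 1.17.1. Positions and lengths are from GENCODE v29 (GRCh38), which holds 58420 of the 60666 genes. Length and expression trends were removed by loess (span 0.75) over 14251 genes. The limma fit, the removal of the trend and the median-of-ratios scaling were tested on simulated data, and the other steps were not. No 2 libraries had identical TPM in more than 0.889% of tested genes.

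The 10 genes and the lists were chosen with earlier results of these data known. From each pathway list the text names the called genes whose mean reached 10 TPM, at most 4, and the most abundant gene, and other genes named were chosen after their values were seen. Some listed genes are counted but neither named with a result nor plotted. Alternatives were no filter, a pseudocount of 0.1, a replicate block, 5 other scalings, removal of the trend, an adjusted p alone and leaving out each library, and the fit without 2 libraries was added after seeing the data.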

Additional observations from a re-analysis of the deposited data

How the results depend on the processing

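APOB (lower) and MTTP (higher) were called in all 17 settings, APOA1 in 16, APOE in 14 and APOA2 in 12. When single libraries were omitted, 3 to 4 of the 10 genes were called higher and 1 lower. Of the 10 genes, 6 were called higher with median-of-ratios scaling, upper-quartile scaling and median centring, 3 with quantile normalization, 1 after removal of mitochondrial and small RNA genes and 2 after removal of the length and expression trend, where 2 were called lower, and 2 fell at an adjusted p alone. The median log2 fold change of the 10 was 1.26 with median-of-ratios scaling, 1.22 with upper-quartile scaling, 0.41 with quantile normalization, 1.34 with median centring, 0.294 with the trend removed and 0.942 without the 2 libraries rich in 5S RNA. APOC3 (-0.357) and APOM (-0.323) changed sign with the trend removed, and APOM (-0.0254) and LIPC (-0.0206) after removal of mitochondrial and small RNA genes. The log2 change of the summed TPM was 0.851 after that removal and 1.44 with median-of-ratios scaling. Pathway genes called higher numbered 16 with median centring, and those called lower 7, 8, 10 and 5 with median-of-ratios, upper-quartile, quantile and median scaling and 7 with the trend removed. Over all tested genes, 981 were called higher and 3409 lower. These became 2031 and 1799 (median-of-ratios), 1899 and 1910 (upper quartile), 1694 and 1849 (quantile), 2597 and 1305 (median centring), 3044 and 7326 at an adjusted p alone, and 1309 lower with the trend removed. Calls in the higher direction made up 22.3% as deposited, 53%, 49.9%, 47.8% and 66.6% with these scalings in the same order, 16.5% after removal of mitochondrial and small RNA genes and 51% with the trend removed. At an adjusted p under 0.05, 8 of the 10 genes rose with median-of-ratios scaling, upper-quartile scaling and median centring, against 6 as deposited. The share of all tested genes called higher was 14.1%, 13.2% and 18% with these 3 scalings, against 6.82% as deposited. The scalings moved the median of all tested genes from -0.362 to 0.0284, -0.00616, -0.0298, 0.171 and -0.477 for the last of them without mitochondrial and small RNA genes. Beyond the scaling itself, the cause was not tested.

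Same-numbered libraries deviated together with correlations of only 0.0349 to 0.0908, so they were not treated as pairs, although 5 of 6 libraries correlated best with the library of their own number. With the replicate block, 4 of the 10 genes were called higher and 1 lower, and 996 genes were called higher and 3410 lower over the table.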

Other observations

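Genes around the chromosome 11 and chromosome 19 clusters, named after their values were seen as the nearest 3 tested protein-coding genes on each side, moved in both directions. Before the APOA1 and APOC3 cluster, CADM1 rose from 7.44 ± 0.99 to 16.99 ± 0.55 TPM (log2 fold change 1.097) and BUD13 by 0.43, while ZPR1 was at 28.5 ± 1.26 and 30.0 ± 0.88 TPM (limma adjusted p = 0.3394). CADM1 is not close to the cluster, since it ends at position 115504957 and BUD13 starts at 116748170. On the other side, SIK3 fell from 15.7 ± 0.75 to 6.45 ± 0.65 TPM (-1.17), PAFAH1B2 fell by 0.80 and SIDT2 by 0.43 on the log2 scale. Beside APOE and APOC1, TOMM40 was at 128.8 ± 8.19 TPM in control and 129.1 ± 6.53 TPM in shFAM111B cells (adjusted p = 0.9599), NECTIN2 rose by 0.50 and BCAM fell by 0.32. RELB, beyond the APOC2 end of this cluster, fell from 42.5 ± 3.98 to 17.1 ± 1.14 TPM (-1.27), and CLPTM1 (-0.27) and CLASRP (-0.14) did not pass.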
